A study of Mus musculus with 2 samples.

Results

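The 33 genes described here encode the glucose transporters, glycolytic enzymes and lactate-handling proteins of macrophages together with the oxygen-sensing machinery around HIF-1 and a few of its classical targets. They were chosen by symbol, not by their values, and all 33 were found among 55536 annotated genes, of which 22015 are nuclear-encoded and protein-coding. The symbol Aldoa has a second gene ID, with 0 expected counts in both libraries, so the ID with more counts was used. The data are total RNA sequencing of RNA depleted of ribosomal RNA from bone marrow-derived macrophages of C57BL/6J mice, which are primary phagocytes grown from bone marrow. Every culture had received lipid A, the part of lipopolysaccharide that TLR4 recognises, at 100 ng/ml for 12 h, then a washout of 12 h, then the same dose again for 90 min before the nucleoplasmic RNA was taken. The labels also call this material a nuclear fraction, give the same donor entry for both libraries and state neither age nor sex. The 2 libraries form 1 group, replicate 1 made from 1 µg of RNA and replicate 2 from 500 ng. No untreated, singly stimulated, hypoxic, cytoplasmic or unfractionated sample was analysed here, so the values are levels within this condition and not induction.

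In glycolysis, glucose enters through transporters, is trapped by hexokinase and is split and oxidised to pyruvate, which can leave the cell as lactate. HIF-1 is a transcription factor whose alpha subunit is hydroxylated by prolyl hydroxylases when oxygen is present and then degraded, and its targets include many glycolytic genes. Macrophages activated through TLR4 are known to raise glycolysis and to accumulate HIF-1 alpha even with oxygen present. Because HIF-1 alpha is controlled largely as a protein, levels of RNA do not measure its activity.

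Expected gene counts summed to 29400104 in replicate 1 and 17789543 in replicate 2. For a gene without reads, the limit of 3 counts corresponds to 0.102 CPM (counts relative to the library total) in replicate 1 and 0.169 CPM in replicate 2. All 10 macrophage markers examined stood at 1 TPM or more in both libraries, with a list median of 147 TPM and summed levels of 2140 and 2862 TPM in replicates 1 and 2. The 21 markers of neutrophils, B cells, T cells, erythroid and stromal cells summed to 1.81 TPM in replicate 1 and 3.17 in replicate 2. None of them reached 1 TPM in both libraries, and 7 were listed at 0 in both, among them the neutrophil elastase gene Elane. The second quantification gave 2 of these markers more than 1 TPM in a library, the T cell marker Cd3d with 1.24 and 4.58 TPM in replicates 1 and 2 and the erythroid marker Alas2 with 0.898 and 3.47 TPM, against 0 and 0.03 TPM and 0.47 and 1.25 TPM by the first. TPM is a level per length, scaled to the same total in each library, and values are those of the authors' first quantification unless the second is named. In bulk RNA a share of cells that use a gene and the amount of RNA in each cell cannot be told apart.

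Mean levels of the 33 genes ran from 0.015 TPM for Egln3 to 147 TPM for Hk3. The list median was 11.5 TPM (10.7 in replicate 1 and 12.4 in replicate 2), against 0.215 TPM over all 22015 protein-coding genes. A level of at least 1 TPM in both libraries was reached by 23 of 33 genes (69.7%), against 8499 of the protein-coding genes (38.6%). Many protein-coding genes had few or no reads, and among the 11355 whose mean count reached 10 the median was 4.12 TPM and the share 74.8%. Above 10 TPM in both libraries stood 17 of the 33 genes. Below 1 TPM in both were Slc2a3, Aldoc, Slc16a1, Pdk1, Epas1, Egln3, Bnip3 and Ddit4. Pfkm and Egln1 lay on opposite sides of 1 TPM in the 2 libraries. A mean count of at least 10 was reached by 31 genes, all except Epas1 and Egln3.

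**Figure D1:**
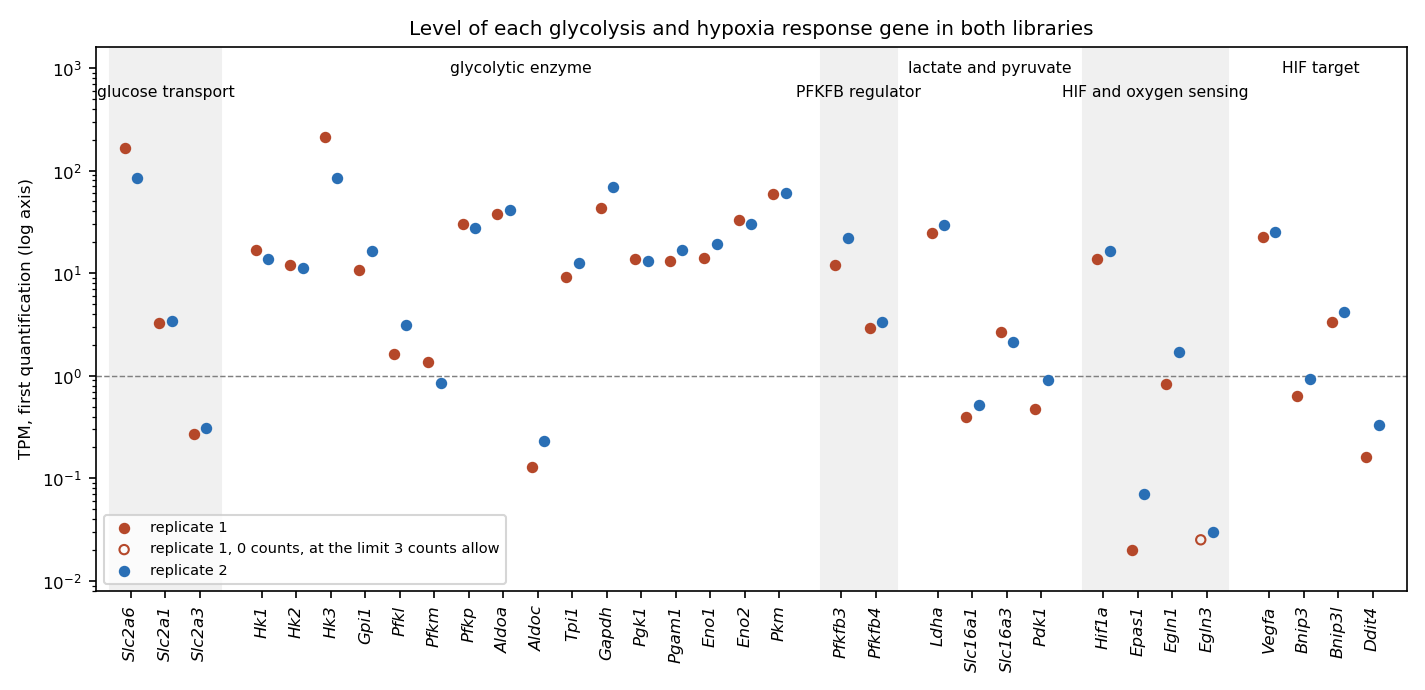
TPM of the 33 genes (log axis) in replicate 1 (red) and replicate 2 (blue), ordered by role; the open circle is Egln3 in replicate 1, with 0 counts, drawn at the 0.0252 TPM that 3 counts allow, and the dashed line is 1 TPM. Hk3 and Slc2a6 stand highest in both libraries, and both are higher in replicate 1.

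Glucose transport was led by Slc2a6, which encodes GLUT6, a transporter found largely on intracellular membranes. Slc2a6 (ENSMUSG00000036067.12, mm10 chromosome 2, 27021363 to 27027998, minus strand) stood at 167 TPM in replicate 1 and 84.0 in replicate 2. It ranked 195th of all protein-coding genes by mean TPM (126 ± 58.8, SD, n = 2). Slc2a1, the gene of the plasma membrane transporter GLUT1, stood at 3.28 TPM in replicate 1 and 3.45 in replicate 2. Slc2a3, the gene of the high-affinity transporter GLUT3, stood at 0.27 and 0.31 TPM on 54 and 34 counts. Slc2a6 therefore held 96.8% ± 1.56 of the TPM of the 3 transporters, and the levels of the 3 genes did not overlap between libraries. By the second quantification its share was 95.3%.

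**Figure D2:**
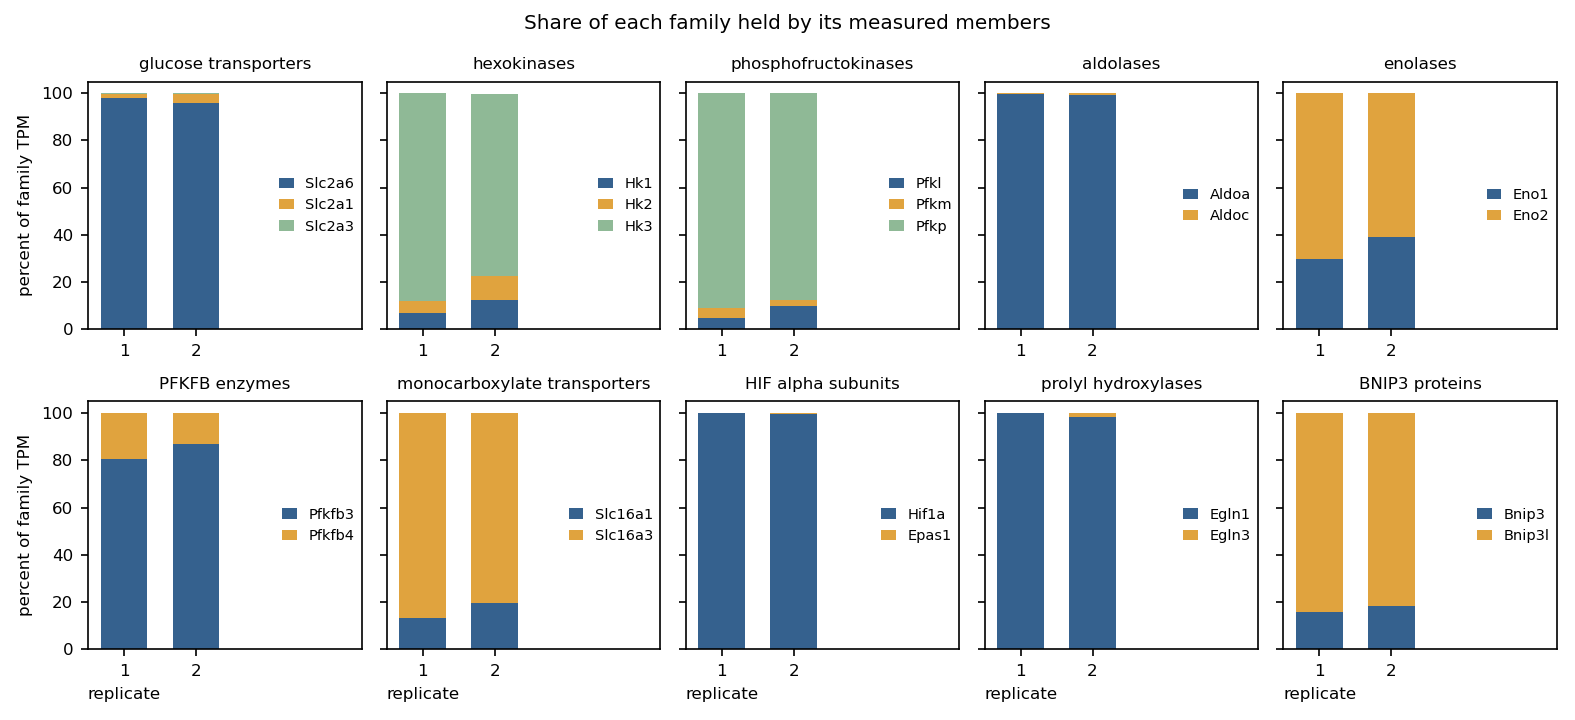
Percent of the TPM of each family that each of its listed genes held, in replicate 1 (left bar) and replicate 2 (right bar). Among the enolases Eno2 holds 70.1% in replicate 1 and 60.7% in replicate 2, and in the other families the leading gene holds at least the 77.2% of Hk3 in replicate 2.

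Hexokinase, the enzyme that phosphorylates glucose, had the highest summed level of the 10 glycolytic steps at 174 ± 92.5 TPM, and most of it came from Hk3. Hk3 (ENSMUSG00000025877.14, chromosome 13, 55005985 to 55021385, minus strand) stood at 211 TPM in replicate 1 and 84.0 in replicate 2 and ranked 149th among protein-coding genes. Hk1, which binds mitochondria and is used by most tissues, stood at 16.8 and 13.6 TPM. Hk2, the mitochondria-binding form that HIF-1 and growth signals are known to induce, stood at 11.9 and 11.1 TPM. The order Hk3, Hk1, Hk2 held in both libraries, with Hk3 at 88.0% of hexokinase TPM in replicate 1 and 77.2% in replicate 2. Coding isoforms held 48.4% of Hk3 TPM in replicate 1 and 41.0% in replicate 2, and a mean of 38.8% by the second quantification. The summed level of the step and the share held by Hk3 are therefore not those of coding RNA, by which the steps were not ranked. Hk3 and Slc2a6 could not be ordered, since their ranges over the libraries overlap. Together they made up 49.6% of the summed TPM of the 33 genes in replicate 1 and 27.3% in replicate 2.

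Sequences of the gene starts of these 2 leading genes, with 6 listed genes whose control by HIF is well described, are shown because the HIF complex binds a short core. The letters searched on both strands were ACGTG and GCGTG, which cannot start at the same base but can share bases between strands. Capitals mark each match, which reads CACGT or CACGC where it lies on the other strand. Each line gives the 250 bases before the annotated start, 5′ to 3′ along the gene, from RefSeq on GRCm38.p6. The 6 were taken from Vegfa, Egln1, Egln3, Bnip3, Bnip3l, Ddit4, Pdk1 and Slc2a1, as the highest by mean TPM for which a window was found. Genes of glycolytic enzymes were not part of that choice. Slc2a6 and Hk3 were added after their values had been seen.
Slc2a6 (chr2:27027999-27028248, minus strand): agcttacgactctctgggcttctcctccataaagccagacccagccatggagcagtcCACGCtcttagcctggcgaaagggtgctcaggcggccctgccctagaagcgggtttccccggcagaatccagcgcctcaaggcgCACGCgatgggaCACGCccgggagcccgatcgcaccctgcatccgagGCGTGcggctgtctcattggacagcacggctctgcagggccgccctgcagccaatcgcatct
Hk3 (chr13:55021386-55021635, minus strand): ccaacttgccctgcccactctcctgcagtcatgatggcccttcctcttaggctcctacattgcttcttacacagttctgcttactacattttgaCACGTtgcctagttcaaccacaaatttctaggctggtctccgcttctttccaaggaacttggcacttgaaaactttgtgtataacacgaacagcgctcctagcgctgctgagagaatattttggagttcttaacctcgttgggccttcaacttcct
Vegfa (chr17:46032378-46032627, minus strand): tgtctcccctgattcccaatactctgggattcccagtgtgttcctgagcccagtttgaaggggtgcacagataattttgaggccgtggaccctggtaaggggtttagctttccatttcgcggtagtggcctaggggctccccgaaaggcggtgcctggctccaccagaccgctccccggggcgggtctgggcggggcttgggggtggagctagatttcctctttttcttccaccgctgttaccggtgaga
Slc2a1 (chr4:119108495-119108744, plus strand): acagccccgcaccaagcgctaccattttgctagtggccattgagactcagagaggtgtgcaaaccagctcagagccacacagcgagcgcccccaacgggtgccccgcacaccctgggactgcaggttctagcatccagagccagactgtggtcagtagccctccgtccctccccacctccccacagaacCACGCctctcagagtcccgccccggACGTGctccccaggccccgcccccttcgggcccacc
Egln1 (chr8:124949255-124949504, minus strand): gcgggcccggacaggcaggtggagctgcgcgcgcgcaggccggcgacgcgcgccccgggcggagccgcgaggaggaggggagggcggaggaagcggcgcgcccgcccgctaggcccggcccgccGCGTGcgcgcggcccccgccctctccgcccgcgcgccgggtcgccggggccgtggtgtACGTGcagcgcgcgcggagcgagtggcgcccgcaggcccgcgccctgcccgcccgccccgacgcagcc
Bnip3 (chr7:138909507-138909756, minus strand): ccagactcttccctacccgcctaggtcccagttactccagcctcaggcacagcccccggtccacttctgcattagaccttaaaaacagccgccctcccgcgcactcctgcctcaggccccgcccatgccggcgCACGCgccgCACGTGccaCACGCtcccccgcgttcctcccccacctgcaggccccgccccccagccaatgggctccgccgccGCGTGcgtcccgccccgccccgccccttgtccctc
Pdk1 (chr2:71872974-71873223, plus strand): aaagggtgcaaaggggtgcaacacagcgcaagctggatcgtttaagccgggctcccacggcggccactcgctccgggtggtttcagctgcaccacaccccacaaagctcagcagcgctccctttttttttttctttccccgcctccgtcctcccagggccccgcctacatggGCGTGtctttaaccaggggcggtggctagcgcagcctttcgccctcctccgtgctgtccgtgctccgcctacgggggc
Ddit4 (chr10:59951771-59952020, minus strand): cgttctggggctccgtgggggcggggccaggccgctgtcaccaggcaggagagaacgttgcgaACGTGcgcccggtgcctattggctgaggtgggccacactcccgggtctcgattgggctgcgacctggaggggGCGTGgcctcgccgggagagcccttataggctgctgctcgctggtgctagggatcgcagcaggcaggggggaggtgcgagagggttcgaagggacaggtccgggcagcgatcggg
The printed bases of Vegfa, the highest of the 6, hold 0 matches, and its other window holds 1 match to each core. Slc2a1, Ddit4 and Egln1, the gene of the main oxygen-sensing prolyl hydroxylase, hold 1 match to each core, and Pdk1 holds 1 match to GCGTG. In Bnip3, a mitophagy receptor gene, 5 matches stand in the printed bases, 2 of them overlapping on opposite strands. Slc2a6 holds 4 matches to GCGTG and 0 to ACGTG, whereas Hk3 holds 1 match to ACGTG. A promoter window (250 bases before to 50 after a start) was found for 30 of the 33 genes, and Bnip3l, Slc2a3 and Epas1 were not matched. Either core was present in a window of 27 of the 30 genes (90.0%), against 46.7% of 27025 genes with a window and 68.9% of the 6837 with at least 1 TPM in both libraries. ACGTG alone was present for 21 genes (70.0%), against 21.8% and 30.4%. Genes with several windows have more chances of a match, and by window the shares were 35 of 44 (79.5%) for the listed genes, 43.8% of all 32851 and 63.0% of the 8736 of protein-coding genes with at least 1 TPM in both libraries. Median GC content of the windows was 62.2% for the listed genes, 52.7% for all windows and 61.0% for those of genes with at least 1 TPM, and its part in the match shares was not tested. The genes whose windows held no match were Eno2, Gpi1 and Tpi1. A match in these letters is a description of sequence and does not show binding.

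The steps after hexokinase lay between 10.8 and 59.8 TPM. Gpi1, glucose-6-phosphate isomerase, stood at 10.7 TPM in replicate 1 and 16.4 in replicate 2. Phosphofructokinase, the committing step, had most of its TPM on the platelet-type gene Pfkp at 30.0 and 27.4 TPM. Coding isoforms held 16.3% of Pfkp TPM in replicate 1 and 7.09% in replicate 2, and a mean of 28.2% by the second quantification. The share of family TPM held by Pfkp is therefore not its share of coding RNA. The liver-type gene Pfkl stood at 1.62 and 3.10 TPM and the muscle-type gene Pfkm at 1.36 and 0.84 TPM. Pfkp thus held 89.2% ± 2.52 of the family, and the ranges of Pfkl and Pfkm were close but did not overlap. By the second quantification they did, with Pfkl at 0.911 and 2.74 TPM and Pfkm at 1.64 and 0.907 TPM, so the order of these 2 genes is not resolved.

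Aldoa, the muscle-type aldolase that most cells use, stood at 37.5 TPM in replicate 1 and 41.4 in replicate 2. Aldoc, the brain-type aldolase, stood at 0.13 and 0.23 TPM on 14 and 15 counts, and Aldoa held 99.6% ± 0.146 of the pair. Tpi1, triosephosphate isomerase, was the lowest step at 9.07 and 12.4 TPM. Its range overlapped that of Gpi1, so the order of these 2 steps is not resolved.

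Gapdh, glyceraldehyde-3-phosphate dehydrogenase and a common reference gene, stood at 43.2 TPM in replicate 1 and 69.5 in replicate 2. Pgk1, phosphoglycerate kinase, stood at 13.8 and 13.2 TPM and Pgam1, phosphoglycerate mutase, at 13.2 and 16.9 TPM. The later steps were uneven, with Gapdh and pyruvate kinase above the 2 steps between Gapdh and enolase in both libraries.

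Among the enolases Eno2, known as the neuronal form, exceeded Eno1, the form most cells use, in TPM of the whole gene. Eno2 stood at 32.7 TPM in replicate 1 and 29.9 in replicate 2, and Eno1 at 14.0 and 19.3 TPM. The ranges do not overlap, and Eno2 held 65.4% ± 6.64 of the pair. By the second quantification the order was the same in both libraries but the margin in replicate 2 was small, with 69.2% in replicate 1 and 53.2% in replicate 2. Isoforms with a retained intron held 46.0% ± 11.7 of Eno2 and 21.2% ± 4.63 of Eno1. The coding isoform Eno2-201, of 434 codons, stood at 2.39 TPM in replicate 1 and 2.69 in replicate 2. Eno1-202, also of 434 codons, stood higher at 9.39 and 10.7 TPM. The lead of Eno2 therefore holds for the gene total and not for these 2 isoforms.

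Pkm, pyruvate kinase, had nearly equal levels of 59.2 TPM in replicate 1 and 60.4 in replicate 2 (59.8 ± 0.849, SD, n = 2). Its transcripts choose between 2 exons of 167 bases, the upstream one giving PKM1 and the downstream one giving PKM2, the form that proliferating and activated cells use. Pkm-201, which holds the downstream exon, took 71.7% of gene TPM in replicate 1 and 80.7% in replicate 2. Pkm-202, which holds the upstream exon, took 15.4% and 8.05%, and the retained-intron isoform Pkm-205 took 8.18% and 8.15%. The second quantification gave lower shares to both, 52.7% and 53.4% for Pkm-201 and 10.4% and 4.95% for Pkm-202. It placed 16.2% and 18.6% on the short coding isoform Pkm-208, above Pkm-202, whereas the first gave Pkm-208 0.557% and 0.480%. Pkm-201 and Pkm-202 differ outside the 2 exons too, with lengths of 2432 and 2041 bases, so their shares may not rest on the exons alone. The exons are shown because the choice between them gives PKM1 or PKM2. Both are exon 9 of their transcript on the plus strand of chromosome 9 (mm10), and capitals mark the 64 positions at which they differ, which leaves 103 identical positions (61.7%).
Pkm-201 exon (chr9:59675568-59675734): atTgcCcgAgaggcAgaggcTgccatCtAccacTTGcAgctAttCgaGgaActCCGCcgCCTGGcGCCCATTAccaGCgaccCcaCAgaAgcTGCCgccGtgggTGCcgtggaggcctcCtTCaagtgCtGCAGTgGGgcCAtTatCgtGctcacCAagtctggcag
Pkm-202 exon (chr9:59675029-59675195): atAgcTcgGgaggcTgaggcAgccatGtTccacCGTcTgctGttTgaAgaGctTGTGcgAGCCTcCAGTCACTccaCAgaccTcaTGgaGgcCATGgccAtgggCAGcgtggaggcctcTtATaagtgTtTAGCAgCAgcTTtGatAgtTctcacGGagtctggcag
The PKM2-type exon lies downstream of the PKM1-type exon in the gene, and Pkm-201 exceeded Pkm-202 in both libraries by both quantifications.

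The PFKFB enzymes set the level of fructose-2,6-bisphosphate, the strongest activator of phosphofructokinase. Pfkfb3, the form with high kinase activity, stood at 12.1 TPM in replicate 1 and 22.0 in replicate 2. Pfkfb4, a second inducible form, stood at 2.94 and 3.34 TPM. Pfkfb3 held 83.6% ± 4.50 of the pair in these libraries.

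Of the genes that decide the fate of pyruvate, Ldha, lactate dehydrogenase A, stood at 24.8 TPM in replicate 1 and 29.7 in replicate 2. Slc16a3, the lactate exporter MCT4, stood at 2.66 and 2.14 TPM. Slc16a1, the transporter MCT1, stood at 0.40 and 0.52 TPM and below Slc16a3 in both libraries. Slc16a3 held 83.7% ± 4.58 of the pair, and 91.5% by the second quantification. Pdk1, the kinase that holds pyruvate dehydrogenase inactive and a known HIF-1 target, stood at 0.47 and 0.91 TPM on 87 and 84 counts.

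The RNA of HIF-1 alpha was abundant and that of its paralogue was near the limit of detection. Hif1a (ENSMUSG00000021109.13, chromosome 12, 73901375 to 73947530, plus strand) stood at 13.8 TPM in replicate 1 and 16.5 in replicate 2. Epas1, the gene of HIF-2 alpha, had 5 counts (0.02 TPM) in replicate 1 and 9 counts (0.07 TPM) in replicate 2. The exact 95% counting intervals (Poisson) of Epas1 were 0.0552 to 0.397 CPM in replicate 1 and 0.231 to 0.960 CPM in replicate 2. The second quantification gave Epas1 366 and 441 estimated counts, or 0.494 and 1.20 TPM, so Hif1a held 99.7% ± 0.196 of the pair by the first and 93.0% by the second. The level of Epas1 is therefore uncertain, while Hif1a exceeded it by both.

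Among the prolyl hydroxylases, which mark HIF alpha for degradation, Egln1 stood at 0.83 TPM in replicate 1 and 1.69 in replicate 2. Egln3, an inducible hydroxylase, had 0 counts in replicate 1, which allows up to 0.0252 TPM, and 2 counts (0.03 TPM) in replicate 2. Egln2, the third enzyme of the family and not among the 33 genes, stood at 10.8 and 11.1 TPM, above Egln1 in both libraries. Egln2 is named here after its values had been seen.

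Of the 4 listed HIF targets outside glycolysis and oxygen sensing, Vegfa, the angiogenic growth factor, stood highest. Vegfa (ENSMUSG00000023951.17, chromosome 17, 46016993 to 46032369, minus strand) stood at 22.7 TPM in replicate 1 and 25.3 in replicate 2. Bnip3l, a mitophagy receptor gene also called Nix, stood at 3.34 and 4.22 TPM, and Bnip3 at 0.63 and 0.93 TPM. Ddit4, the mTORC1 inhibitor REDD1, stood at 0.16 and 0.33 TPM on 12 and 13 counts. The 4 genes kept one order in both libraries, Vegfa, Bnip3l, Bnip3 and Ddit4, with no overlap between neighbours.

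The libraries differed in these genes by amounts that depended on the gene, and the upper end was held by the same 2 leading genes. Ratios were taken as replicate 1 over replicate 2 from counts scaled by TMM, a factor that sets the bulk of genes equal between libraries. The median log2 ratio of the 31 genes was 0.11, with 18 higher and 13 lower in replicate 1. Over 11355 protein-coding genes the median was 0.05, with 6133 higher and 5222 lower, and over 14831 genes of all types it was -0.01. A log2 ratio beyond 1, that is more than 2-fold, was found for 3 of the 31 (9.68%), all higher in replicate 1. Over all genes the share beyond 1 was 13.4% in either direction and 5.85% in the direction of higher in replicate 1. Over protein-coding genes these were 8.69% and 5.02%. The share of the listed genes is near that of protein-coding genes in either direction, and in the one direction it rests on 3 genes, so it is not a result about them as a group.

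Hk3 had 22150 counts in replicate 1 and 4539 in replicate 2, a log2 ratio of 1.73 with a 95% counting interval of 1.68 to 1.78. Slc2a6 had 17004 and 4586 counts, a log2 ratio of 1.33 (1.29 to 1.38). Pfkm had 174 and 56 counts, a log2 ratio of 1.07 (0.64 to 1.54). The intervals cover counting error only, and for Pfkm the interval includes 1. All 3 stayed beyond 1 by the second quantification, at 1.92 for Hk3, 1.48 for Slc2a6 and 1.09 for Pfkm. On the ratio of TPM with a pseudocount of 0.1 only Hk3 did, with Slc2a6 at 0.99 and Pfkm at 0.64, and with library totals Pfkm was at 0.91. Replicate 1 was also the library with more counts and with more input RNA in the labels, and the part of either in these ratios was not tested.

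**Figure D3:**
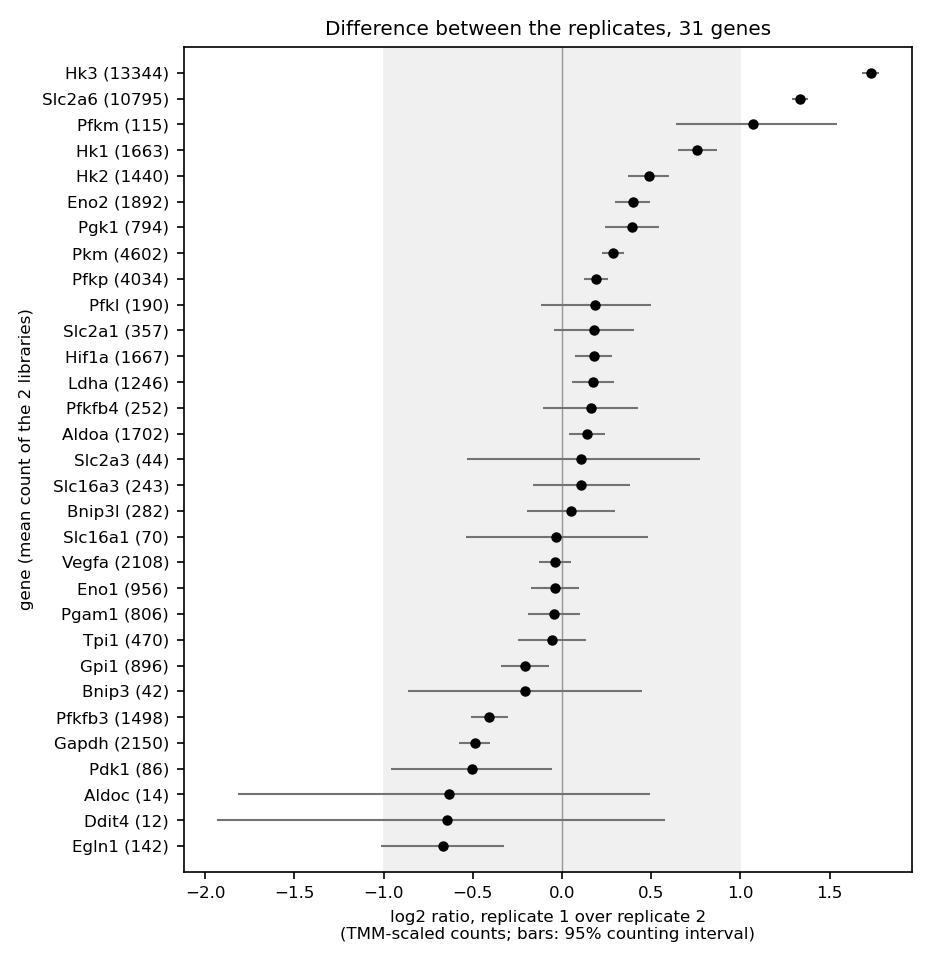
Log2 ratio of replicate 1 over replicate 2 for the 31 genes whose mean count reached 10 (points), with 95% counting intervals (bars) and the mean count in brackets; grey marks ratios within 1. Hk3, Slc2a6 and Pfkm lie to the right of the grey band, and no gene lies to its left.

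The other hexokinases lay on the same side as Hk3, Hk1 at 0.76 (0.65 to 0.87) and Hk2 at 0.48 (0.37 to 0.60). On the other side lay Egln1 at -0.67 (-1.01 to -0.32), Gapdh at -0.49 (-0.58 to -0.40) and Pfkfb3 at -0.41 (-0.51 to -0.30). Hif1a at 0.18, Ldha at 0.17, Aldoa at 0.14 and Vegfa at -0.04 differed little between the libraries. The direction depends on the scale for many genes. TPM was lower in replicate 1 for 24 of the 33, and the median log2 ratio of the 31 genes was -0.26 on TPM and -0.06 with library totals in place of TMM. Over the 11355 protein-coding genes whose mean count reached 10, median TPM was also lower in replicate 1, at 3.71 against 4.65 in replicate 2. The lower TPM is thus not particular to the listed genes. The 9 genes with the higher TPM in replicate 1, which were Slc2a6, the 3 hexokinases, Pfkm, Pfkp, Pgk1, Eno2 and Slc16a3, were also higher there by the scaled counts of both quantifications. Lower in replicate 1 by all 3 measures were 7 tested genes, namely Gpi1, Aldoc, Gapdh, Pfkfb3, Pdk1, Egln1 and Bnip3. The counting intervals of Slc16a3, Aldoc and Bnip3 include 0, and Slc16a3 was at -0.06 with library totals. The 3 measures come from the same reads. The shares of all genes that meet them were not taken, so these numbers are not a result about the listed genes as a group.

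Part of the RNA of these genes was assigned to isoforms outside the coding class. Of the 32 genes with isoform shares, 29 had at least 50% of their TPM on coding isoforms by the mean of the libraries (90.6%), against 77.2% of 12842 protein-coding genes with a level above 0. By the second quantification the number was 21 (65.6%), against 63.1%. The 3 others by the first were Pfkp, Slc2a6 and Hk3, which are among the most abundant. For Slc2a6, the coding Slc2a6-201 held 41.1% in replicate 1 and 37.6% in replicate 2, against 37.2% and 39.5% for the processed transcript Slc2a6-205 and 19.4% and 21.4% for Slc2a6-203. For Hk3, the coding Hk3-208 held 44.8% and 35.0%, the nonsense-mediated decay isoform Hk3-204 held 25.8% and 30.6%, and the processed transcript Hk3-205 held 23.5% and 26.1%. By the second quantification Hk3-205 came first in both libraries at 28.0% and 31.7%, followed by Hk3-208 at 26.3% and 22.3%, and Hk3-204 held 9.65% and 18.2%. How far reads of unspliced RNA contribute to these shares was not tested.

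**Figure D4:**
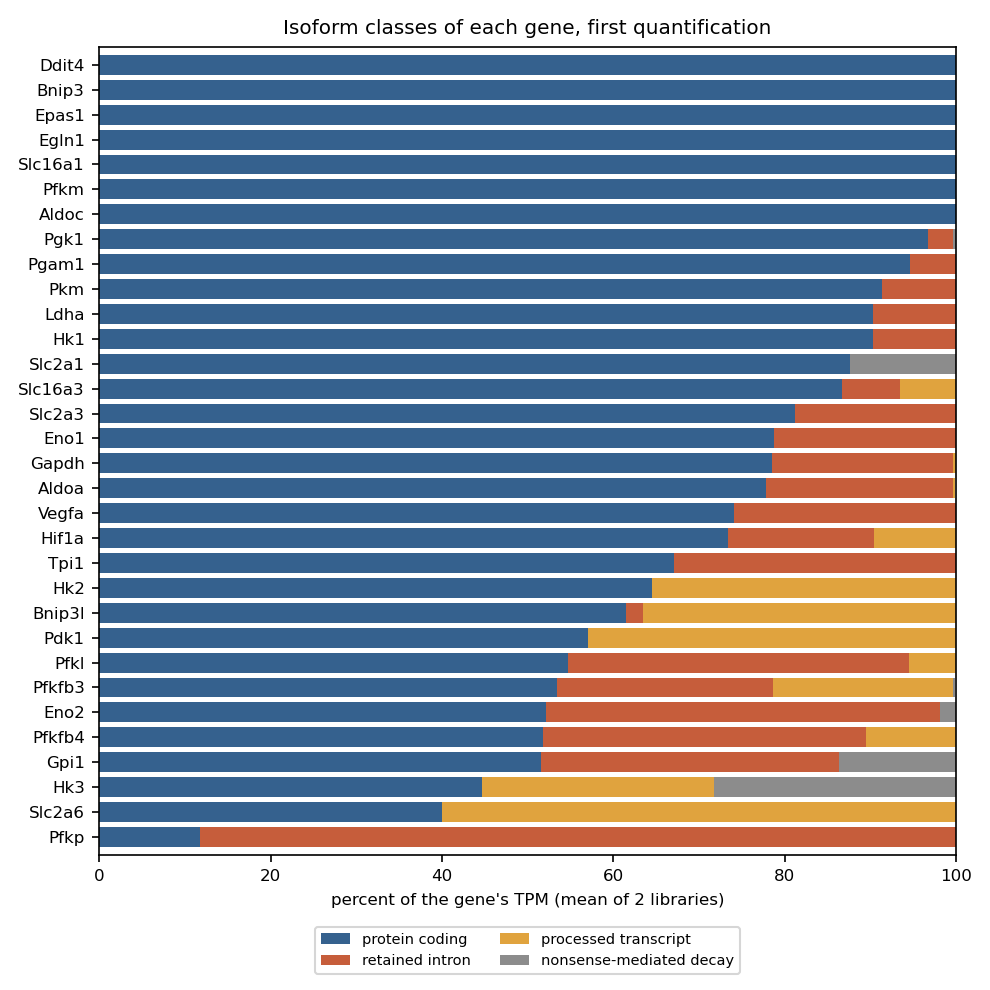
Percent of each gene's TPM on isoforms of 4 annotated classes, mean of replicates 1 and 2, for 32 genes (Egln3 has no value in replicate 1). Coding isoforms hold 11.7% in Pfkp, 40.0% in Slc2a6 and 44.7% in Hk3.

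Retained-intron isoforms held a median of 21.2% of TPM over the 19 listed genes that have isoforms of both this and the coding class and reached 1 TPM in each library. Over all 5524 such genes the median was 30.9%, and 20.4% of them were above 50%. The one listed gene above 50% was Pfkp, at 88.3% ± 6.50, and its leading isoform was the retained-intron Pfkp-212 at 27.2% in replicate 1 and 39.8% in replicate 2. Eno2 followed at 46.0% ± 11.7. The lowest shares were those of Bnip3l (1.95% ± 2.75), Pgk1 (2.97% ± 2.16), Pgam1 (5.35% ± 2.81) and Slc16a3 (6.72% ± 2.20). Next came Pkm (8.63% ± 0.689), Hk1 (9.67% ± 2.96) and Ldha (9.75% ± 6.36). The second quantification gave a higher median, 28.9% for the listed genes and 35.7% for all, and 64.3% for Pfkp.

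Leading isoforms differed in how well they were resolved. Vegfa-202, a long coding isoform, held 58.6% in replicate 1 and 69.9% in replicate 2, ahead of the retained-intron Vegfa-210 at 16.0% and 13.7%, the coding Vegfa-201 at 4.36% and 9.09% and the retained-intron Vegfa-209 at 9.46% and 0.870%. Hif1a-201 held 46.1% ± 5.53 of Hif1a, Ldha-202 held 89.6% and 83.2% of Ldha, and Aldoa-201 held 63.9% and 77.1% of Aldoa. The second quantification gave lower shares to all 4 leading isoforms. They were 36.8% and 59.6% for Vegfa-202 and a mean of 37.2% for Hif1a-201. For Ldha-202 they were 60.5% and 60.3%, and for Aldoa-201 they were 51.0% and 56.4%. For Gapdh the coding isoforms Gapdh-212 and Gapdh-202 traded places, with 42.8% and 15.2% for the first and 6.93% and 29.3% for the second, while Gapdh-203 averaged 30.9%. For Pfkm the whole gene was assigned to Pfkm-205 in replicate 2 and 77.2% to Pfkm-202 in replicate 1. The isoforms Pfkm-202 and Pfkm-205 have the same coding length of 780 codons.

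The quantifications ordered the genes alike, with a Spearman correlation of 0.988 over the 33 mean TPM values, which come from the same reads. Counts of the second were higher than those of the first by a median of 1.22 times in replicate 1 and 1.69 times in replicate 2 over 31 of the genes, against 1.36 and 1.86 times over 14037 genes. The exceptions were Epas1, with 73.2 times in replicate 1 and 49.0 times in replicate 2, and Slc2a3, with 2.65 and 5.83 times. The second quantification placed 88.4% and 81.7% of Slc2a3 on the retained-intron isoform Slc2a3-204, which the first gave 14.3% and 23.3%. Another annotated gene overlaps 17 of the 33, on the opposite strand for 13, and whether counting used strand is not given in the sources used here. The most expressed such partners of Pfkm were Senp1 (1633 and 1142 counts), opposite to it, and Gm26513 (64.7 and 28.0 counts), on its own strand. Unc5a overlaps Hk3 on the opposite strand (424 and 279 counts), and no annotated gene overlaps Slc2a6.

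**Figure D5:**
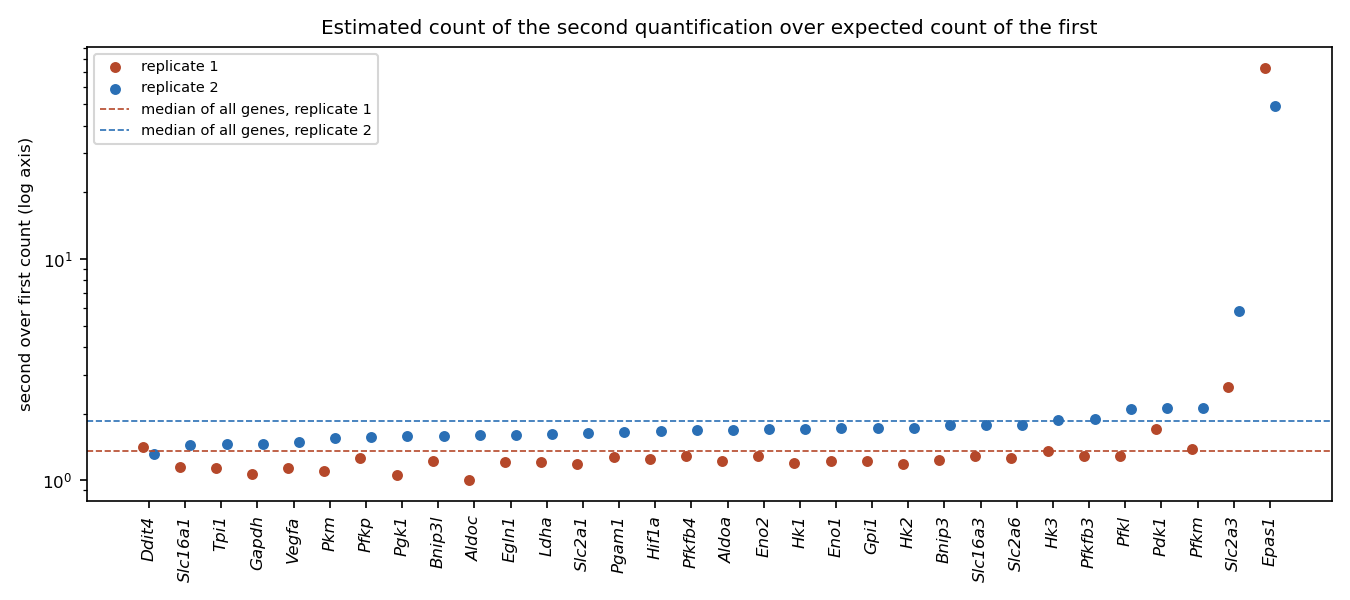
Estimated count of the second quantification over the expected count of the first (log axis) for 32 genes, in replicate 1 (red) and replicate 2 (blue), with the medians over all genes as dashed lines. Slc2a3 and Epas1 lie above the others in both libraries, and Egln3 is left out because its mean count is only 1.

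Copies were counted only where annotated under the symbol of a listed gene followed by -ps or -rs, together with Eno1b. These took few reads, and copies under other names were not examined. The 13 copies so counted were led by Pgam1-ps2 at 0.70 TPM in replicate 1 and 0.23 in replicate 2, Eno1b at 0.35 and 0.28 TPM, and Bnip3l-ps at 0 and 0.23 TPM. By the second quantification the highest were Eno1b (0.103 and 0.114 TPM), Pgk1-rs7 (0.0423 and 0.00906 TPM) and Aldoa-ps4 (0 and 0.0255 TPM), while Pgam1-ps2 and Bnip3l-ps were at 0. The Gapdh copies so counted, on chromosomes 8 and Y, were at 0 in both.

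The wider pathway was read from 126 other genes in 5 lists, of which 81 stood at 1 TPM or more in both libraries. Of 32 other glycolytic isoforms and glucose-handling genes 12 did (median 0.493 TPM). Bsg, the chaperone of the monocarboxylate transporters, stood at 20.8 TPM in replicate 1 and 29.0 in replicate 2. The monocarboxylate transporter family member Slc16a6 stood at 19.8 and 20.5 TPM, above both Slc16a1 and Slc16a3. Slc16a7 of the same family, at 5.12 and 3.64 TPM, was also above both, and Slc16a4, at 0.31 and 1.08 TPM, was below Slc16a3. Slc16a7 and Slc16a4 are named here after their values had been seen. Gpd2, mitochondrial glycerol-3-phosphate dehydrogenase, stood at 8.15 and 11.4 TPM (21.2 and 24.9 TPM by the second quantification) and Adpgk, the ADP-dependent glucokinase, at 4.69 and 7.45 TPM. Listed at 0 in both were 8 genes, among them Fbp1, the gluconeogenic phosphatase, and Gapdhs, the sperm form of Gapdh.

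Of 23 genes of the pentose phosphate, glycogen and nucleotide sugar branch 18 reached 1 TPM (median 3.26 TPM). The oxidative dehydrogenase genes Pgd and G6pdx were among the 4 highest, Pgd at 31.2 TPM in replicate 1 and 43.5 in replicate 2 and G6pdx at 12.5 and 16.1 TPM. The others were Gfpt1, the entry enzyme of the hexosamine pathway, at 20.3 and 21.5 TPM and Tkt, transketolase, at 13.5 and 14.6 TPM. Psph (0.51 and 0.43 TPM) and Shpk (0.26 and 0.33 TPM) were lowest. Rpia, ribose-5-phosphate isomerase, had 93 and 127 counts in replicates 1 and 2 and lay just past the ratio threshold, lower in replicate 1.

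Of 13 genes of pyruvate entry into mitochondria 9 reached 1 TPM (median 3.26 TPM). The mitochondrial pyruvate carrier gene Mpc1 stood at 17.7 TPM in replicate 1 and 19.4 in replicate 2. The pyruvate dehydrogenase complex genes Dld (15.5 and 14.1 TPM), Pdhb (7.28 and 10.8 TPM) and Pdha1 (6.04 and 9.10 TPM) followed. Pcx, pyruvate carboxylase, stood at 0.13 and 0.14 TPM, but at 5.42 and 9.05 TPM by the second quantification, so its level is uncertain. Pdk4, a kinase of the complex, was listed at 0 in both, and the second quantification gave it 0.104 and 0.704 TPM.

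Of 18 genes of oxygen sensing and HIF control 15 reached 1 TPM (median 8.13 TPM). The HIF coactivator gene Ep300 averaged 26.5 ± 2.12 TPM, and Eloc, elongin C of the VHL ligase, stood at 14.4 TPM in replicate 1 and 16.1 in replicate 2. Kdm5a, an oxygen-sensitive histone demethylase, stood at 13.8 and 13.2 TPM, and Arnt, the partner of HIF alpha subunits, averaged 12.9 ± 2.99 TPM. P4htm (0.02 and 0.08 TPM) and Hif3a (0.01 and 0 TPM) were lowest. Hif1a averaged 15.2 ± 1.94 TPM, so its range and that of Arnt overlap.

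Of 42 other HIF and hypoxia targets 28 reached 1 TPM (median 3.52 TPM). Sdc4, the proteoglycan syndecan-4, stood at 176 TPM in replicate 1 and 170 in replicate 2. Plin2, the lipid droplet coat protein, stood at 58.1 and 47.7 TPM. The collagen-modifying enzymes P4hb (41.7 and 48.8 TPM) and Plod1 (40.9 and 42.7 TPM) followed. Epo, erythropoietin, and Tgfa were listed at 0 in both. Of the tested genes in the 5 lists, in the order given here, 2 of 19, 1 of 23, 1 of 12, 1 of 16 and 2 of 33 lay beyond 1 in the log2 ratio between the libraries.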

How the data were processed

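Each library was quantified by the authors in 2 ways on mm10 with GENCODE M21, per the deposited notes. In the first, the authors divided reads shared between features by a model to give expected counts, under RSEM column names, per the file headers. The authors scaled these by length and to a fixed total over all features to give TPM, per the file headers. The authors also gave each isoform's percent of the TPM of its gene, per the file headers. The second, under kallisto column names per the file headers, gives estimated counts and TPM per transcript, summed here per gene. Deposited FPKM and interval columns were not used. The sources used here name no aligner, version or use of strand. Expected counts were rounded to whole numbers. Rows that name no gene, 0.766% of counts in replicate 1 and 0.272% in replicate 2, were left out of totals. TMM factors (edgeR 4.0.16) over genes whose mean count reached 10 were 0.944 and 1.06, and log2 ratios used a prior count of 0.5. Counting intervals of the ratios were exact binomial (Clopper-Pearson). Ratios were tested on simulated data with 200 changed genes. List medians used log2(TPM + 1). DESeq2 1.42.0 gave alternative size factors. With 1 group there was no test of conditions. The 2 libraries share a donor entry, so their spread may be technical. Intervals and limits cover counting error only. The genes, the lists, the alternatives and the rule for named genes (all 33, and in each other list the 4 highest and 2 lowest by mean TPM and any with a mean count of at least 100 and a log2 ratio beyond 1) were chosen with earlier results of these data known.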

Additional observations from a re-analysis of the deposited data

How the results depend on the processing

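The list median of 11.5 TPM was 6.03 TPM by the second quantification, 53.4 TPM with TPM rescaled over protein-coding and long non-coding genes and 13.3 TPM over those whose mean count reached 10; it ran from 10.7 to 12.4 TPM in single libraries. At a minimum of 5 TPM the numbers in the 5 other lists were 4, 8, 5, 9 and 13. Shares of leading genes by the second quantification were 95.3% for Slc2a6, 91.5% for Slc16a3, 93.0% for Hif1a and 78.5% for Bnip3l. By CPM, not per length, they were 93.1% for Pfkp, 99.1% for Aldoa, 77.6% for Slc16a3 and 86.9% for Bnip3l. The number of genes more than 2-fold higher in replicate 1 was 1 on the TPM ratio, and 2 were more than 2-fold lower without a filter on counts. The median log2 ratio was -0.26 on the TPM ratio and -0.06 with library totals. The retained-intron median of 21.2% was 28.9% by the second quantification and 19.2% to 19.9% in single libraries. The 13 copies summed to 0.94 TPM and to 0.156 TPM by the second. Rescaling multiplied every level by 4.65 in both libraries, so that change of unit alone moved all 33 levels by more than 1 SD. By the second quantification the levels of 21 genes moved by more than 1 SD. The causes of the changes other than that on rescaling were not tested. No paired analysis was possible because there is 1 group.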
